A study of Homo sapiens with 4 samples.

Results

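Internal coding exon peaks are places where RNA pulled down with YTHDF2 exceeded the background over an exon inside a protein-coding transcript. Of the 14858 peaks in the list, 2372 were of this kind, or 16.0% (95% Clopper-Pearson interval 15.4 to 16.6, counting error only), in 1806 genes. A peak belonged here if it lay on chromosomes 1 to 22 or X, was annotated to an exon of a coding RefSeq transcript, and that exon was number 3 or later and not the last. No measured value entered this rule, though it was chosen with earlier results of these data known. The libraries were 2 of YTHDF2 RNA immunoprecipitation (RIP) and 2 of input RNA, all from unmodified (WT) cells of HCCLM3, a human hepatocellular carcinoma line with a metastatic phenotype. All 4 were combined by the authors into 1 peak list, so no value per library and no spread between replicates can be given, and nothing says whether replicates came from separate cultures. There was no control pulldown, so a peak is enrichment over the caller's background and not binding by itself. YTHDF2, the immunoprecipitated protein, and CRTC2, the coactivator named in the study's title, had 0 internal coding exon peaks.

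YTHDF2 is a cytosolic reader of N6-methyladenosine (m6A), the commonest internal modification of mRNA, and recruits deadenylases to the RNAs it binds. In human mRNA, m6A is known to be dense around stop codons, in 3' UTRs and in unusually long internal exons. Short internal exons carry less of it, because exon junction complexes deposited at splice sites keep the methyltransferase away. Internal coding exons are also the part of an mRNA that ribosomes travel through.

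The letters under most peaks were not at hand, but RefSeq promoter windows (GRCh38.p14) of neighbouring transcripts overlapped some peaks. Of the overlapping peaks 9 were considered, and these may not be all of them. The 3 of these 9 with the highest −log10 q are shown, as the sequence these peaks cover. The strand is that of the mRNA, with each GGAC, the core of the usual m6A consensus, in capitals. The stretches shown are described in turn. These stretches are 22 bases of the peak in exon 14 of 15 of RNF220, a ubiquitin ligase (chr1:44649895-44649916, plus strand), 72 bases at the edge of the peak in exon 4 of 6 of CNPY2, an endoplasmic reticulum protein (chr12:56311164-56311235, minus strand), and 257 bases around the summit in exon 41 of 53 of DOCK4, a guanine nucleotide exchange factor (chr7:111758494-111758750, minus strand).
RNF220: atgcccctaacgtccatccagt
CNPY2: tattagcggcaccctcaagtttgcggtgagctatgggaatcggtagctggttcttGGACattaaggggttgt
DOCK4: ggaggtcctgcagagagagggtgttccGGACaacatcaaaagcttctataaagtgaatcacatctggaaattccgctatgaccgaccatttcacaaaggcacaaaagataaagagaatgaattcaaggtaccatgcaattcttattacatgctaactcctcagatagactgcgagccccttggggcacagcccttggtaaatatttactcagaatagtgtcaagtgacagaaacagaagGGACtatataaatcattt
GGAC was present 0 times in the RNF220 stretch, 1 time in that of CNPY2 and 2 times in that of DOCK4. On the opposite strand it was present 1, 0 and 1 times in the same order. Exon boundaries were not at hand and a peak can run past its exon. Whether each GGAC lies in the exon or in adjoining intron is therefore not given. Among 35116 RefSeq promoter windows trimmed to the same lengths, 7.28%, 23.2% and 59.9% held GGAC, so its presence here is a description only. The RNF220 peak had a fold enrichment of 3.23 over 44 RIP fragments and the CNPY2 peak 1.77 over 103. The DOCK4 peak had 3.91 over 5 fragments, with a −log10 q of 1.92 that missed the threshold used below.

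Each summit carries a fold enrichment, RIP over background as computed by the authors, and a q, the caller's adjusted p. The fold and p together fix the whole number of RIP fragments at the summit and the background they were set against, which is scaled input or a genome-wide level of 0.533. A q of 0.01 or less was met by 1116 of the 2372 internal coding exon peaks, or 47.0% (45.0 to 49.1), against 37.3% of all 14858 peaks. The share was 40.2% (30.1 to 51.0) of 92 last coding exon peaks, 52.4% (45.4 to 59.4) of 208 peaks in exon 1 or 2, 51.1% (49.6 to 52.7) of 4042 3' UTR peaks and 7.19% (6.31 to 8.15) of 3157 intron peaks. Because the list has no replicates, these shares were set side by side without a test.

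Internal coding exon peaks had a median fold of 2.50 (quartiles 1.89 and 3.26, range 1.17 to 20.5). The median was 1.67 for last coding exons, 2.34 for exons 1 and 2, 2.12 for 3' UTRs and 2.61 for introns. The fragments behind these folds differed as well. Internal coding exon summits held a median of 20.5 RIP fragments over a median background of 6.72, against 52.5 over 30.3 in last coding exons, 39 over 18.9 in exons 1 and 2, and 44 over 19.7 in 3' UTRs. Intron summits held 3 over 0.68. Peaks in internal exons therefore spanned a wide range of depth, with quartiles of 5 and 72 fragments. Of them 515 (21.7%) rested on 4 or fewer fragments. None of those passed a q of 0.01, which so few fragments cannot reach even over the lowest background, 0.533.

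How the folds of internal exons and 3' UTRs compared depended on depth, being close at 20 or more fragments, farther apart between 5 and 19, and 2.61 in both at 4 or fewer. Among peaks of 60 or more fragments, the median fold was 1.89 for 721 internal coding exon peaks (75.3% passing), 1.55 for 41 last exon peaks (65.9%), 1.82 for 88 peaks in exons 1 and 2 (72.7%), 1.84 for 1568 3' UTR peaks (74.8%) and 2.31 for 57 intron peaks (87.7%). Between 20 and 59 fragments the internal exons had 2.08, with 52.8% of 483 passing, the 3' UTRs 2.08, with 50.2% of 1423, and the introns 3.15, with 75.5% of 98. Between 10 and 19 fragments the internal exons had 3.50, with 64.3% of 277 passing, and the 3' UTRs 2.50, with 29.2% of 489 passing. Between 5 and 9 fragments the medians were 3.57 in internal exons and 2.79 in 3' UTRs. Exons 1 and 2 were also high at these depths. Their medians were 3.95 between 10 and 19 fragments (73.9% of 23 passing) and 3.65 between 5 and 9 (29.6% of 27). The list's p limit lets a shallow peak in only at a higher fold: the lowest fold among internal exon peaks was 1.70 at 4 or fewer fragments and 1.17 at 60 or more. All 261 internal exon peaks with a fold of 4 or more had a q of 0.01 or less. With a background of at least 0.533, this follows from how fold and p are computed.

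**Figure D1:**
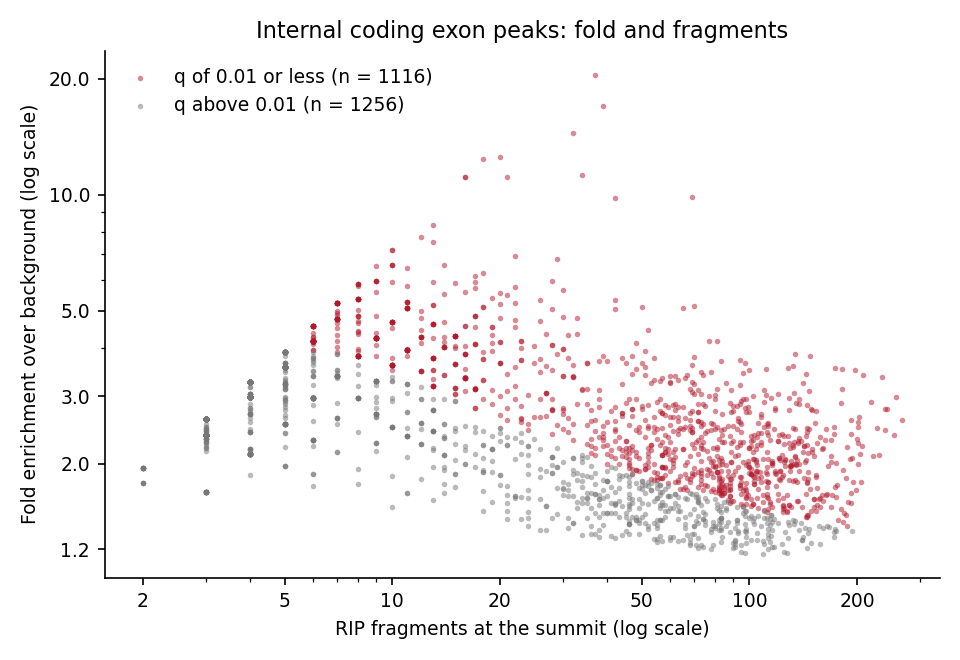
Fold enrichment at the summit against the number of RIP fragments there for the 2372 internal coding exon peaks, both on log scales, 1 point per peak and darker where points coincide. Points in red have a q of 0.01 or less (n = 1116) and those in grey do not (n = 1256); the highest folds lie at moderate fragment numbers, and peaks of 60 or more fragments have a median fold of 1.89.

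The highest folds came from summits with little background, 10 peaks in 9 genes by the rule used. NBPF19, of a recently expanded primate family, led with 20.5-fold in exon 69 of 93 (chromosome 1, 149535614 to 149536033), from 37 fragments over a background of 0.857. DDX52, an RNA helicase of ribosome assembly, had 17.0-fold from 39 over 1.36 in exon 11 of 16. A peak annotated to LOC102724594, in exon 6 of 8 on chromosome 21, had 14.4-fold from 32 over 1.28. Whether that gene has near-identical copies was not checked. ABR, a GTPase-activating protein for RAC, had 12.5-fold from 20 over 0.68 in exon 3 of 22. The list of 10 went on with PAM16, of the mitochondrial import motor (11.1-fold in exon 3 of 5, 21 fragments), and VAMP7, a vesicle SNARE (11.1-fold in exon 6 of 7, 16 fragments). Of the 12 passing peaks with a fold of 8 or more, 3 stood against the genome-wide background, that is, with no more input than the genome average.

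On chromosome 15, 2 genes accounted for 3 of those 12 peaks. TJP1, the tight junction scaffold ZO-1, had 12.4-fold in exon 5 of 28 from 18 fragments, 11.2-fold in exon 20 from 34 and 3.26-fold in exon 6 from 4, the last not passing. FMN1, an actin-nucleating formin, had 5 peaks that all passed. Their folds were 3.62 in exon 6, 11.1 in exon 7, 5.22 in exon 8, 6.82 in exon 13 and 5.09 in exon 14 of 17, from 7 to 29 fragments. Both genes were thus high at several separate exons and not at a single one. NAP1L4, a histone chaperone (chromosome 11), likewise had 3 neighbouring exons with 7.74-fold (exon 3), 9.77-fold (exon 4) and 9.83-fold (exon 5 of 16), from 12, 42 and 69 fragments.

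By −log10 q the leaders were peaks with 174 or more fragments and folds between 2.78 and 3.56, apart from NAP1L4, NBPF19 and DDX52. HNRNPUL1, an hnRNP U-like RNA-binding protein, had the highest −log10 q of all internal exon peaks, 48.8, with 3.36-fold in exon 13 of 15 (chromosome 19, 41304160 to 41304515), 235 RIP fragments over a background of 69.3. The 14-3-3 adaptors YWHAB and YWHAZ followed with 2.99-fold in exon 3 of 7 (258 over 85.7) and 3.40-fold in exon 5 of 6 (208 over 60.5). ARPC1B, a subunit of the Arp2/3 nucleator, had 3.51-fold in exon 6 of 10 (198 over 55.7), TPM3, a tropomyosin, 3.52-fold in exon 4 of 7 (182 over 51.0), and DSTN, the actin-severing destrin, 2.78-fold in exon 3 of 5 (242 over 86.3). NUDC, a cochaperone of the dynein pathway, had 3.56-fold in exon 3 of 9 (174 over 48.2). The largest number of fragments at any internal exon summit, 267, was that of YBX1, a cold-shock RNA-binding protein, in exon 5 of 8 at 2.60-fold.

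Along the transcript the peaks were spread over all internal exons. Their transcripts had a median of 18 exons (quartiles 12 and 26, range 4 to 146), and the median ratio of exon number to exon total was 0.583 (0.571 to 0.600). For the 2181 peaks in transcripts of 8 or more exons, the exons from number 3 to the next to last were cut into 5 equal groups from 5' to 3'. These held 384, 451, 468, 477 and 401 peaks, where an even spread over exons would give 436, 432, 446, 432 and 436. The share with a q of 0.01 or less was 47.7%, 46.8%, 46.8%, 46.8% and 43.4% in the same order, with interval bounds between 38.5 and 52.8. Neither the counts nor the shares climbed steadily toward the 3' end, and both outer groups held fewer peaks than an even spread. That even spread counts exons and takes no account of their lengths. Each peak has 1 annotation, so any peak placed in a promoter or UTR class is not counted here.

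**Figure D2:**
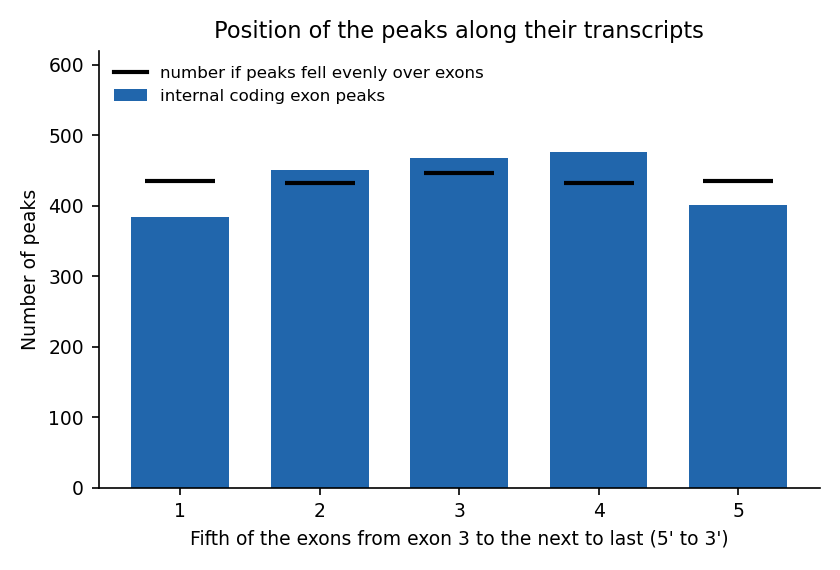
Number of internal coding exon peaks (bars, n = 2181 in transcripts of 8 or more exons) in 5 equal groups of exons from exon 3 to the next to last, ordered 5' to 3', with the number an even spread over exons would give (black lines). The bars run from 384 to 477, with the first and the last below the black line.

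At the edges of the definition, 211 peaks in exon 3 had a median fold of 2.43 and 52.1% passed, while 206 peaks in exon 2 had 2.34 and 51.9%. In the next to last exon, 223 peaks had a median fold of 2.52 and 50.2% passed, while 74 peaks in the last exon of transcripts with 4 or more exons had 1.77 and 43.2%. Transcripts with few exons gave deeper peaks. The median was 52 fragments in transcripts of 4 to 7 exons (55.5% of 191 peaks passing), 38 at 8 to 14 exons (54.5% of 682), 20 at 15 to 29 (45.4% of 1007) and 9 at 30 or more (36.8% of 492). Median backgrounds moved with them, from 21.1 at the fewest exons to 1.93 at the most. The part that transcript abundance plays in this was not tested.

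Most peaks were narrow. The median width was 340 bp (quartiles 315 and 395), 618 peaks (26.1%) had the list's minimum of 315 bp, and the longest was 1540 bp. Median widths were 404.5 bp in last coding exons, 353.5 bp in exons 1 and 2 and 404 bp in 3' UTRs. The widest internal peaks lay in CERS2, a ceramide synthase (1540 bp, exon 3 of 11), MUC5AC, a gel-forming mucin (1537 bp, exon 31 of 49), TAB2, an adaptor of TAK1 kinase (1515 bp, exon 3 of 7), SRRM2, a scaffold of nuclear speckles (1486 bp, exon 11 of 15), FLNA, an actin crosslinker (1398 bp, exon 37 of 48), and WNK1, a kinase of ion transport (1392 bp, exon 17 of 26). Exon lengths were not used here, so how much of a peak lies within its exon is not given.

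Of the exons of single transcripts, 13 carried 2 or more peaks. The largest number was in exon 31 of MUC5AC (chromosome 11), where 4 peaks over 4338 bp between the outer summits had folds of 2.0, 2.85, 1.94 and 2.11, from 40 to 61 fragments, and all passed. MKI67, the proliferation antigen Ki-67, had 3 peaks in exon 12 of 14 over 5375 bp (folds 1.51, 1.29 and 1.46, 2 passing, 128 to 154 fragments). NFAT5, the osmotic stress transcription factor, had 3 in exon 13 of 14 over 1559 bp (1.71, 1.25 and 1.76, 2 passing). QSER1 had 2 in exon 4 of 13 over 2481 bp (1.74 and 1.85, both passing). GOLGA4, a golgin of the trans-Golgi, had 2 in exon 15 of 23 with unlike values, 1.21-fold over a background of 120 and 2.57-fold over 77.5, with the summits 2624 bp apart. SRRM2, SLK, MAP4, USP10, SETD1B, UACA and FSIP2 had 2 each. For SMN1 the 2 peaks annotated to exon 4 lay 875591 bp apart (4.84-fold and 5.22-fold) on chromosome 5, where SMN2 is a near-identical copy, so the gene they belong to is uncertain.

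Most genes had a single internal exon peak: 1418 had 1, and 388 of 1806 (21.5%, 19.6 to 23.5) had 2 or more. In 81 of those 388, 2 peaks lay in the same or adjoining exons of 1 transcript. The 10 genes with the most peaks became 17 with ties at 5. FLNA, filamin A (chromosome X, 48 exons), had 8 peaks on deep, well-covered exons. From 5' to 3' they were 1.49-fold (exon 3), 1.29 (exon 7), 1.36 (exon 13), 1.61 (exon 17), 1.63 (exon 24), 2.0 (exon 28), 1.63 (exon 33) and 1.80 (exon 37), each from 136 to 201 fragments. The peaks of exons 7 and 13 did not pass, and the 2 highest folds lay in the 3' part. USP9X, a deubiquitinase, had 5 passing peaks of 1.87-fold (exon 9), 3.69 (exon 18), 2.81 (exon 27), 1.46 (exon 35) and 2.67 (exon 41 of 45). SMARCAD1, a chromatin remodeller, had 6, of which 4 passed, with 4.81-fold over 30 fragments in exon 15 of 24 as the highest. MED13, of the Mediator kinase module, had 5 between 1.51 and 1.98, with 2 passing. SETD1B, an H3K4 methyltransferase, had its higher folds in exons 11 and 12 (2.05 and 2.07, both passing) and its lower in exons 6 and 9 (1.18 to 1.48, none passing). NFAT5 had 4.35-fold in exon 8 from 27 fragments, against 1.76 at most in its other exons, whose peaks were deeper (83 to 119 fragments).

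**Figure D3:**
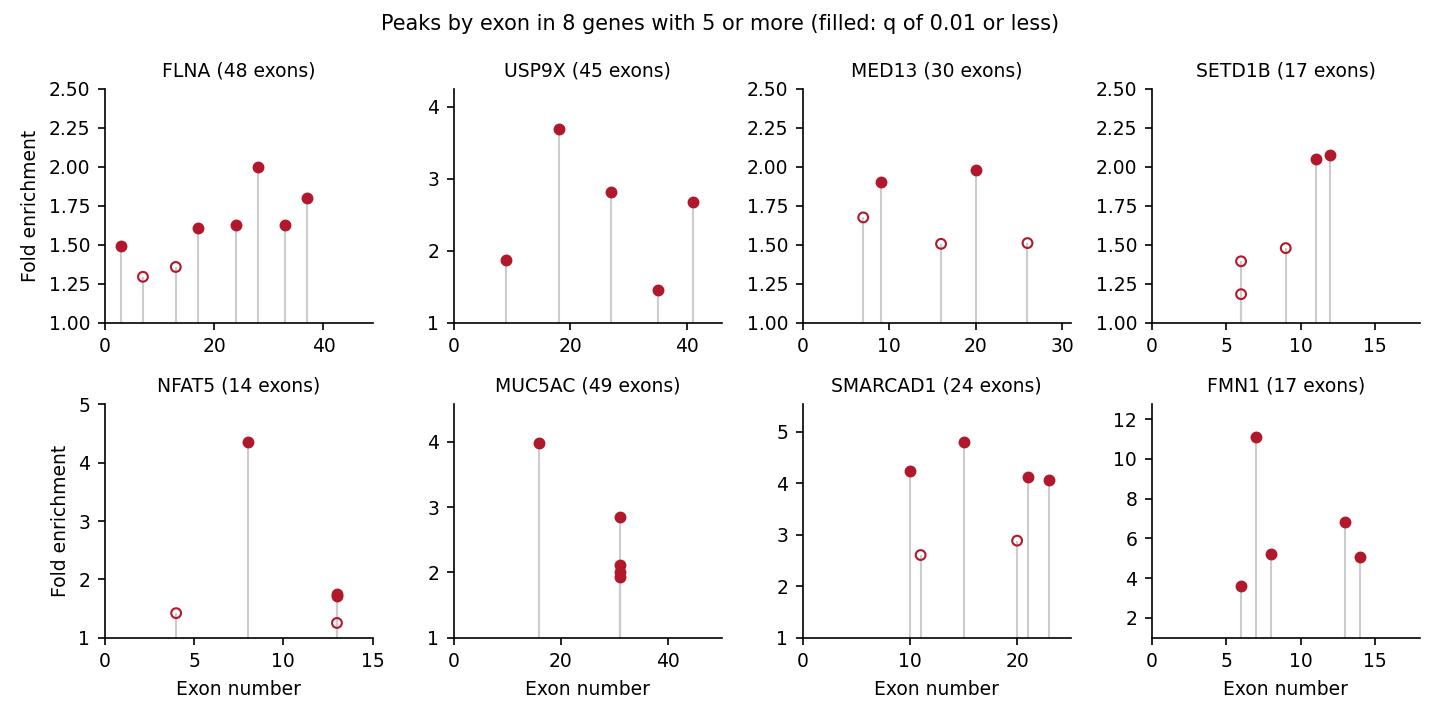
Fold enrichment (vertical axis) of each internal coding exon peak by exon number (horizontal axis) in FLNA, USP9X, MED13, SETD1B, NFAT5, MUC5AC, SMARCAD1 and FMN1, each panel with its own scale starting at 1. Filled points have a q of 0.01 or less and open ones do not; in FLNA 6 of 8 are filled, and in USP9X, MUC5AC and FMN1 all 5 are.

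The other genes with 5 or more peaks fell into long, shallow transcripts and duplicated families. ACACA, acetyl-CoA carboxylase, had 5 peaks of 3 to 5 fragments, of which 0 passed. LYST and PLCE1 had 5 each with 1 passing, and BLTP1 and BTAF1 5 each with 2 passing. Among copies, the NBPF family had 27 peaks in 7 genes with a median fold of 3.91 and a median of 6 fragments, 14 of them passing. The RGPD family of RANBP2-like genes had 10 peaks in 3 genes with a median fold of 3.19, 4 of them passing. Reads of such near-identical copies can be placed on more than 1 gene, so these genes are uncertain.

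Peaks of different classes can be compared within a gene, though they need not lie on the same transcript of it. Of the 1806 genes, 587 (32.5%, 30.3 to 34.7) also had a 3' UTR peak whose summit lay in no other protein-coding gene, 408 (22.6%) an intron peak, 247 (13.7%) a promoter-class peak, 54 a peak in exon 1 or 2 and 9 one in the last coding exon. For 821 genes (45.5%, 43.1 to 47.8) none of these was found. In the 587 genes the peak with the highest −log10 q of each class was compared. The internal exon fold was higher in 351 and lower in 233, with a median log2 difference (internal exon over 3' UTR) of 0.13 (0.092 to 0.20, quartiles -0.34 and 0.53). In the 365 genes with both of these peaks at 20 or more fragments, the median difference was 0.085 (0.0019 to 0.16). In the 135 genes with both under 20 fragments it was 0.21 (0.13 to 0.32, 67.4% higher). When the best peaks were picked again among those of 20 or more fragments, it was 0.082 (-8.3e-05 to 0.15, 370 genes). Where both peaks passed a q of 0.01, the internal exon was higher in 117 of 218 genes and the median difference was 0.054 (-0.035 to 0.13). Median fragments were then 81 in internal exons and 83.5 in 3' UTRs.

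Individual genes lay far to either side. The 14-3-3 gene YWHAZ had 3.40-fold in its internal exon and 1.52-fold in its 3' UTR, each from over 200 fragments (208 and 253), a log2 difference of 1.16. IPO7, a nuclear import receptor, had 5.13-fold in exon 3 of 25 and 1.82-fold in its 3' UTR (difference 1.49). USP9X differed by 1.10, the glycolytic isomerase GPI by 1.02 and the cohesin regulator PDS5A by 1.06 in the same direction. In the other direction, RPS14, a protein of the small ribosomal subunit, had 1.71-fold in exon 4 of 5 and 5.02-fold in its 3' UTR (difference -1.55). The chaperonin subunit CCT8 had 2.36-fold and 4.30-fold (difference -0.86), YBX1 2.60-fold and 4.22-fold (-0.70), and the m6A reader YTHDF1 1.92-fold and 3.35-fold (-0.80). FLNA was alike in both, with 2.0-fold and 1.95-fold (0.036).

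**Figure D4:**
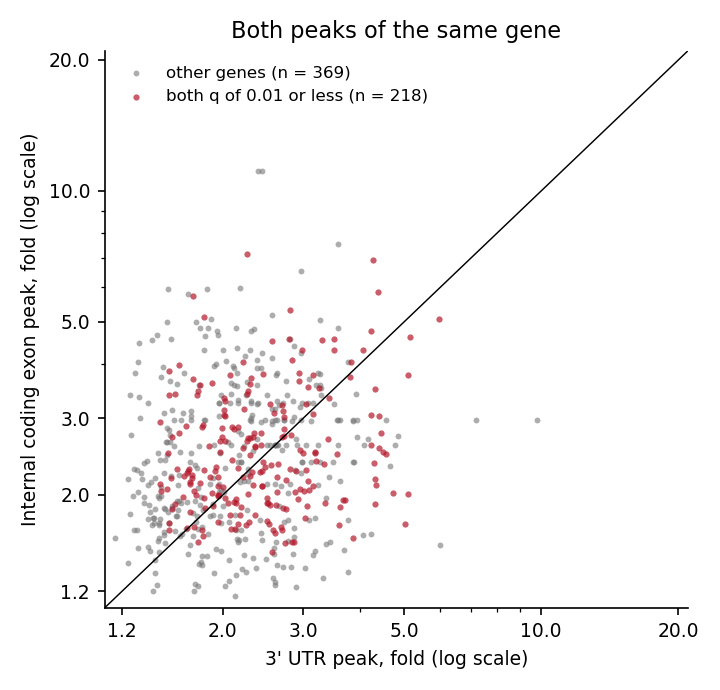
Fold enrichment of the internal coding exon peak (vertical, log scale) against that of the 3' UTR peak (horizontal, log scale) for the 587 genes with both, 1 point per gene and the line marking equal folds. In red are the 218 genes in which both peaks have a q of 0.01 or less, of which 117 lie above the line.

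Genes with such peaks were long. Of 19974 protein-coding genes on these chromosomes, 9.04% had an internal coding exon peak, and in 4.63% at least 1 of them passed. In 4 equal groups by gene span, from the shortest to the longest, 0.561%, 5.49%, 11.5% and 18.6% had a peak. The median span was 68.1 kb in genes with a peak and 24.2 kb over all. Lists of long genes are therefore read against these shares, and no list was tested. The shares count every protein-coding gene, including any not expressed in these cells, which a peak list cannot tell. A list of widely expressed genes can lie above them for that reason alone.

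Genes of chromosome and chromatin structure were among the most often represented. Of 47 chromatin regulators (median span 101 kb), 24 had an internal exon peak and 15 one that passed. ARID1A, a subunit of SWI/SNF remodellers, had 2.36-fold in exon 3 of 20 from 144 fragments (chromosome 1, 26731353 to 26731749), beside 2.15-fold in exon 18 and 1.57-fold in exon 16, the last not passing. SMARCC2, of the same remodellers, had 2.28-fold and the H3K36 methyltransferase NSD2 1.88-fold. Of 32 genes of cohesin, condensin and replication, 15 had a peak and 12 passed. PDS5A had 3.09-fold in exon 32 of 33 from 147 fragments, the cohesin subunits STAG2 and STAG1 4.18-fold and 4.17-fold from 81 and 23, and SMC1A 1.81-fold at the highest of 4 peaks.

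Of 30 genes of the nuclear pore and transport, 13 had a peak and 11 passed. IPO7 had 4 passing peaks whose folds were lower toward the 3' end, with 5.13 in exon 3, 2.75 in exon 8, 2.18 in exon 18 and 1.67 in exon 22. KPNB1, importin beta, had 2.39-fold, the export receptor CSE1L 3.31-fold and the tRNA exporter XPOT 2.53-fold. Of 32 genes of vesicle coats and sorting, 14 had a peak and 11 passed, among them the clathrin adaptor AP2M1 (2.50-fold, 113 fragments), the COPII coat protein SEC31A (3.66-fold, 45), AP3D1 (1.73-fold, 155) and the retromer subunit VPS35 (2.16-fold, 76). Of 35 large ubiquitin ligases and proteases, the list with the longest genes (median span 130 kb), 22 had a peak, the highest share of the 18 lists at 62.9%, and 12 passed. After USP9X came CUL1, the scaffold of SCF ligases (2.73-fold), UBE3A (3.08-fold) and USP47 (2.24-fold).

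Cytoskeletal and matrix genes had a peak in 10 of 28 actin crosslinkers, spectrins and plakins (6 passing), 14 of 35 myosins, dyneins and kinesins (6 passing) and 6 of 26 integrins, laminins and matrix genes (2 passing). After FLNA the leaders were ACTN4, an alpha-actinin (2.09-fold, 169 fragments), RDX, radixin (3.12-fold, 72), and PLS3, plastin 3 (2.71-fold, 68). Among motors MYO1C had 2.29-fold from 101 fragments, KIF5B, the heavy chain of kinesin-1, 1.98-fold from 130, KIF4A 2.46-fold from 65 and MYO18A 2.40-fold from 39. In the matrix list FN1, fibronectin, had 2.46-fold in exon 17 of 47 and the integrin chain ITGAV 4.05-fold from 15 fragments, while FBN1 and ITGA2 had 3.57-fold from 5 fragments each and did not pass.

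Of 35 translation initiation and elongation genes, 10 had an internal exon peak and all 10 passed, with a median of 131.5 fragments at the best peak. PABPC1, the cytosolic poly(A)-binding protein, had 2.78-fold in exon 8 of 15 from 240 fragments, beside 2.26-fold in exon 11 and 1.53-fold in exon 6. EIF5B, the subunit-joining GTPase, had 2.39-fold in exon 4 of 24, against 1.51-fold and 1.28-fold in exons 20 and 17, which did not pass. EIF3A had 2.23-fold and EEF2, the translocating elongation factor, 2.20-fold. Of 40 splicing factors and hnRNPs, 12 had a peak and 8 passed, led by SF3B2 of the U2 snRNP (3.24-fold in exon 19 of 22, 141 fragments), NONO (2.32-fold, 200), HNRNPD (2.94-fold, 80) and HNRNPH1 (2.15-fold, 150). Of 39 genes of deadenylation and decay, 11 had a peak and 9 passed. The nuclear exonuclease XRN2 had 2.75-fold in exon 3 of 30 from 129 fragments, the deadenylase PARN 8.33-fold from 13, the CCR4-NOT subunit CNOT2 2.77-fold from 47, and PAN3 5.95-fold from 9 in 1 of 4 peaks, the only one of them that passed.

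Of 23 m6A writers, erasers and readers, 5 had an internal exon peak and all 5 passed. FMR1, an RNA-binding protein that also recognises m6A, had 3.13-fold in exon 9 of 15 (chromosome X, 147932669 to 147933001) from 68 fragments. YTHDF1 had 1.92-fold in exon 4 of 5 from 104 and YTHDF3 1.61-fold in exon 5 of 6 from 161; both are paralogs of YTHDF2. YTHDC1, the nuclear reader, had 5.87-fold in exon 5 of 17 from 8 fragments, and VIRMA, a scaffold of the methyltransferase complex, 2.44-fold from 37. Of 24 genes of the CREB, CRTC and SIK axis, 7 had a peak and 5 passed, the regulatory subunits of protein kinase A PRKAR2A (2.65-fold, 63 fragments) and PRKAR1A (2.41-fold, 75), the calcineurin subunit PPP3CB (4.31-fold, 19), ADCY9 (4.66-fold, 10) and CRTC3 (3.30-fold in exon 12 of 15, 18). Of 40 lenvatinib targets, receptor kinases and RAS-PI3K genes, 9 had a peak and 5 passed. None of these 9 is a direct target of lenvatinib. MET, the hepatocyte growth factor receptor, had 2.04-fold in exon 8 of 12 and 1.63-fold in exon 13 of 21 of another transcript, AKT2 2.54-fold, SOS1 1.97-fold and PIK3C2A 3.13-fold.

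Housekeeping lists differed in how often they appeared. Of 30 cytosolic and endoplasmic chaperones, 10 had a peak and 8 passed. HSP90B1, the endoplasmic HSP90, had 2.49-fold in exon 5 of 18, 1.83-fold in exon 10 and 1.84-fold in exon 16, all passing. P4HB, a disulfide isomerase, had 2.29-fold, and the chaperonin subunits CCT8 and CCT5 2.36-fold and 2.24-fold. Of 32 genes of glycolysis and central carbon metabolism, 10 had a peak and 7 passed, with the transketolase TKT (2.80-fold, 118 fragments), GPI (2.94-fold, 96), GLUD1 (2.30-fold, 120) and CS (2.35-fold, 105) in front. Of 23 aminoacyl-tRNA synthetases and their scaffolds, 2 had a peak, IARS1 (2.08-fold) passing and MARS1 (1.27-fold) not. Of 46 cytosolic ribosomal protein genes, whose median span is 4.75 kb, only RPS24 (3.73-fold, 94 fragments) and RPS14 had an internal exon peak, and both passed. The median fold of the best peak over all 1806 genes was 2.56, against 2.04 for the translation list, 1.75 for splicing factors, 1.94 for chromatin regulators and 2.74 for vesicle coats. Median fragments at those peaks were 23, 131.5, 127, 67 and 45 in the same order.

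**Figure D5:**
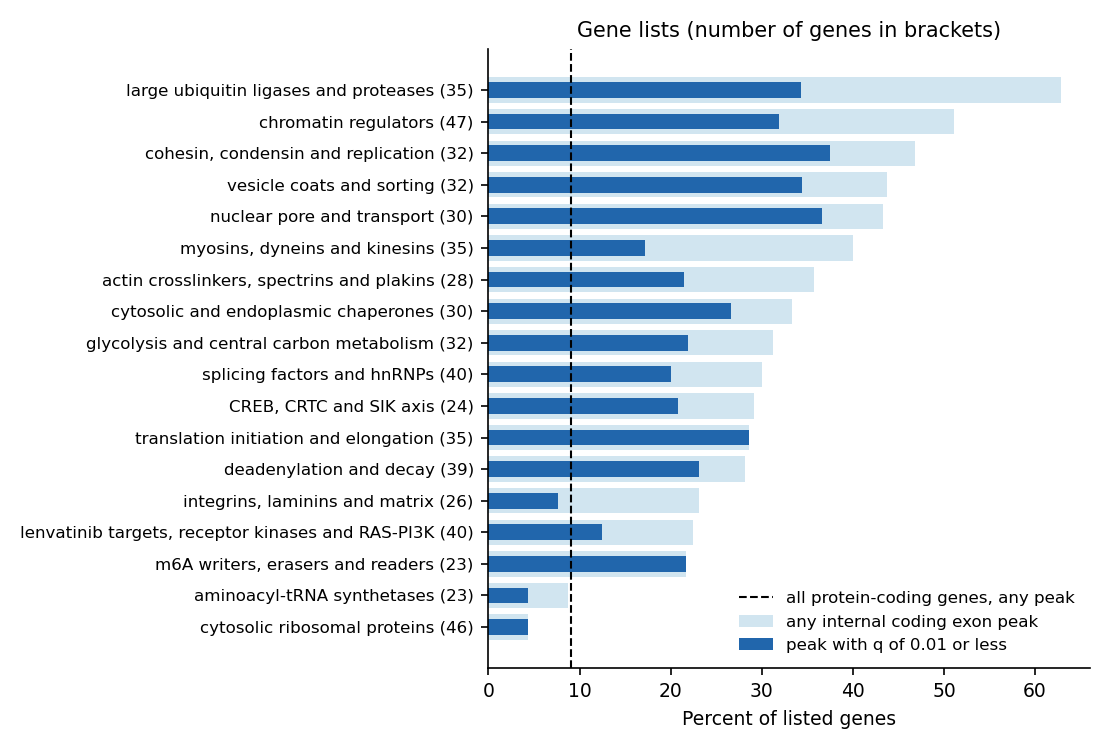
Percent of the genes in each of 18 lists with an internal coding exon peak (light bars) and with a passing one (dark bars), the number of genes in brackets. The dashed line is the 9.04% of all protein-coding genes with such a peak, counted whether or not these cells express them. Of the lists, 16 lie above it, and the aminoacyl-tRNA synthetases and ribosomal proteins below.

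Markers of the labelled cell type were also looked for. Of 10 hepatocyte markers, APOB and HNF4A had a peak anywhere in the list, neither passing, and none had an internal coding exon peak. Of 10 non-parenchymal and blood markers, 4 had a peak anywhere and PECAM1 had an internal exon peak, of 4 fragments and not passing. HBB had 2 peaks of other classes, 1 of them passing, with a highest fold of 5.87. Of 4 epithelial carcinoma markers, KRT8 had 4 peaks and KRT18 had 1, all of other classes and all passing. EPCAM and CDH1 had no peak, and none of the 4 had an internal one. A peak list gives no level for a gene without a peak, so these counts say nothing of expression.

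The gene the file names beside a peak was often not the gene that holds the exon. For 1326 of the 2372 peaks (55.9%, 53.9 to 57.9) the deposited gene, which has the nearest transcription start, was the gene of the exon, and for 1046 it was another. The leading peaks of HNRNPUL1, YWHAB and NUDC stand under CCDC97, PABPC1L and KDF1, and the 5 peaks of ACACA and of NFAT5 under small nucleolar RNA genes. The gene of the exon was used throughout.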

How the data were processed

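Per the submitters' processing notes, the tools included HISAT2 and MACS2 and the build was hg38. Versions, options and how the 4 libraries were combined: not given in the sources used here. Per the file headers, the deposited columns are position, a score, a fold enrichment (a ratio), −log10 p, −log10 q and the transcript annotation of every peak, all made by the authors. The authors' score, 10 times the −log10 p, was not used. Fold is (k + 1) / (background + 1), and p is the upper tail of a Poisson distribution above k. Solving both for a whole k met the −log10 p of every internal exon peak within 0.00013, and on 1980 simulated peaks it returned the simulated k in 100% of cases. These are summit values and not library depths, which are unknown. Intervals are exact 95% Clopper-Pearson, or for medians order-statistic, and cover counting error only. Genes came from the exon annotation through a RefSeq table (GRCh38.p14), which named all 2372 peaks. Of 4042 3' UTR peaks, 3726 had their summit in exactly 1 protein-coding gene, and 290 in several and 26 in none were left out of the within-gene comparison. The members and lists were chosen with earlier results of these data known. Named genes were the 10 highest by fold among passing peaks, the 10 highest by −log10 q, the 10 with the most peaks (ties kept) and up to 4 per list by −log10 q (1 is not reported here); the widest peaks, exons with several peaks, NAP1L4's 3 exons, the within-gene examples, CRTC3, VIRMA and YBX1 were added after their values were seen. Analyses used Python 3.11.15, pandas 2.3.3 and scipy 1.17.1.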

Additional observations from a re-analysis of the deposited data

How the results depend on the processing

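The 10 results were recomputed under up to 6 alternatives each, 54 values in all, of which 26 stayed inside the 95% interval of the value reported. The within-gene log2 difference, the 1 signed result, was above 0 in each, but its interval reached below 0 with q of 0.01 or less, with −log10 q of 5 or more and with 20 or more fragments (lower bounds -0.035, -0.041 and -8.3e-05). Restricting to NM_ transcripts changed nothing, since every member has one. Its value for each of the 10 results is counted among the 26 and could not have moved. With peaks of a q of 0.01 or less only, internal coding exon peaks were 20.1% of peaks, with a median fold of 2.65, 57 fragments and a width of 351 bp. Genes with 2 or more were then 15.8%, those with a 3' UTR peak 23.6%, listed genes with a peak 22.7% (32.8% as reported), and the within-gene log2 difference was 0.054. At a −log10 q of 5 or more these were 17.7% of peaks, 85 fragments, 356 bp, 13.7%, 20.3% and 13.4%. With 20 or more fragments they were 18.5% of peaks, 66.3% passing, a fold of 1.94, 365 bp, 18.1%, 38.4%, 26.1% and a difference of 0.082. In transcripts of 10 or more exons they were 13.6% of peaks, 17 fragments, a relative position of 0.559 and 24.7% of genes with 2 or more. With 1 peak per gene, 51.2% passed. By the deposited gene, 17.7% of genes had 2 or more. These filters differ in which peaks they keep, and most select on depth or q itself. No paired analysis was possible because the list carries no value per library; leaving out a library was not possible for the same reason.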
